A study of Mus musculus with 3 samples.

Results

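Cells with transcripts of several steroidogenic genes were a rare part of the thawed fetal ovarian somatic cells (FOSCs), the supporting cells that are aggregated with germ cells to build reconstituted ovaries. The data are 3 frozen lots (26, 29 and 30) of wild-type CD1 mouse cells at E12.5, profiled by 10X Genomics single-cell RNA-seq after thaw. Each lot pools the ovaries of embryos from 10 pregnant mice, dissected free of mesonephros, dissociated with trypsin and depleted of SSEA1- and CD31-positive cells on magnetic columns. No sample was treated, and the lots are samples of 1 condition and the replicates here (n = 3), so the spread and the p-values given are between lots and not between embryos. Of 29103 barcodes, 28971 had 200 to 9000 detected genes and at most 10% mitochondrial transcripts and were kept. Members were the kept cells chosen by at least 1 unique molecular identifier (UMI, 1 counted transcript molecule) for 3 or more of Hsd3b1, Star, Cyp11a1, Insl3, Cyp17a1 and Cyp21a1, the 6 rule genes. The rule found 141 cells, and 30 of them had 5 or more Insl3 UMIs and are called Insl3-high. Genes on chromosomes X and Y were left out.

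Steroid hormones are made from cholesterol. STAR moves cholesterol to the inner mitochondrial membrane, and CYP11A1 cleaves its side chain there to give pregnenolone with electrons passed on by the ferredoxin FDX1 and its reductase FDXR. HSD3B enzymes then make progesterone-type steroids, CYP17A1 opens the way to androgens, and CYP21A1 and CYP11B1 lead to corticosteroids, which are products of the adrenal cortex. INSL3 is a peptide hormone of Leydig cells, the androgen-producing cells of the testis, and guides testis descent in the fetus. The adrenal cortex and the gonad arise from a shared primordium that expresses the nuclear receptor NR5A1 (SF-1), and the fetal mouse ovary at this stage is not known as a main source of steroids.

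The windows upstream of 5 genes are shown because NR5A1 activates many steroidogenic promoters. All 5 windows shown hold a match, which was not so for all genes that the results turn on. The sequences are RefSeq's for GRCm38.p6 and cover the 250 bases before a transcript start, read 5′ to 3′ on the gene's strand. Capitals mark the letters of a site that NR5A1-type receptors bind, CAAGGNC, and of the nuclear receptor core site, AGGTCA. Both were searched on both strands, and a match on the other strand is in capitals as it reads on the gene's strand. CAAGGNC stood in 15.0% and AGGTCA in 14.0% of the 32851 windows of this length in the RefSeq table, and either stood in 25.9%. Such a match is a description of letters and not a bound site. Insl3 (chr8:71689002-71689251, plus strand) held CAAGGNC at 137 and 57 bases before the start, and Cyp11a1 (chr9:58014702-58014951, plus strand) held AGGTCA at 28 bases before it.
Insl3: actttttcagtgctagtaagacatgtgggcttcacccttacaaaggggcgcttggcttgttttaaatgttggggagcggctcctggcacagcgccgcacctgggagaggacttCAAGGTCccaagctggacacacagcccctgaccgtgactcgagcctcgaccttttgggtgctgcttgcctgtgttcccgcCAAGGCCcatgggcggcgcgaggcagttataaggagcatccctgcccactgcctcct
Cyp11a1: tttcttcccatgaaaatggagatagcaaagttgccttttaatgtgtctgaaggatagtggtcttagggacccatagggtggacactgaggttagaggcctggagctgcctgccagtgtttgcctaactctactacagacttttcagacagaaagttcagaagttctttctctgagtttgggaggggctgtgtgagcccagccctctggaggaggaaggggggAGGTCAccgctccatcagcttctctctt
The ferredoxin gene Fdx1 (chr9:51963603-51963852, minus strand), the secretin gene Sct (chr7:141279134-141279383, minus strand) and the luteinizing hormone receptor gene Lhcgr (chr17:88792015-88792264, minus strand) are no rule genes and were high in members. They held 1 match each, at 124, 114 and 122 bases before the start.
Fdx1: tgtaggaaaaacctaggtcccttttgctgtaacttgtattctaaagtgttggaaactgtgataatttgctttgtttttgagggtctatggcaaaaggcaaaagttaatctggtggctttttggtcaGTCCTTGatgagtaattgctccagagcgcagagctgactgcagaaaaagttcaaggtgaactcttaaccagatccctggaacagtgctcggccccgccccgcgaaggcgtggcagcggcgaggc
Sct: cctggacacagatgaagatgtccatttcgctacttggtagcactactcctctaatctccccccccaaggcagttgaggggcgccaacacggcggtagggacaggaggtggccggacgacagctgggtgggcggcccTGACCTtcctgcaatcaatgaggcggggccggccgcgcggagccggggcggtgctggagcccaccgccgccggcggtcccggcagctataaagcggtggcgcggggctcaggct
Lhcgr: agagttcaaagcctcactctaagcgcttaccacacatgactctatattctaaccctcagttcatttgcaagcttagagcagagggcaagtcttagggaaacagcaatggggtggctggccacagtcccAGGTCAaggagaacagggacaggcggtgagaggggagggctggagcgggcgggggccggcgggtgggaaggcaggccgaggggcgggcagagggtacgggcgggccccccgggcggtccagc
A window was found for 19 of the 24 genes with the largest higher values in members or in Insl3-high members, and 9 of these 19 held either motif. Adh1, Mal, Mgarp, Hao2, Hhip, Cxcl12 and Pltp were among those with no match, and their windows are not printed. Of the rule genes, Insl3, Cyp11a1 and Hsd3b1 were in the table. The Hsd3b1 window and the window at a second Cyp11a1 start held no match.

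The lots held 87494974 to 141920060 UMIs in 8567 to 10773 barcodes, and 69 barcodes occurred in kept cells of more than 1 lot, including that of 1 member. Members were deeper than the other 28830 kept cells, with median UMIs per cell of 18484, 15024 and 14992 in lots 26, 29 and 30 against 11093.5, 8940.5 and 11586. Scrublet called 14.9% of members doublets, 10.0% of the Insl3-high members and 6.21% of other kept cells. The part of depth and of doublets in the results was not tested, beyond the values given with restricted cells below. Counts summed over members came to 1660523, 540691 and 587212 UMIs, so that 1 UMI was worth 0.602, 1.85 and 1.70 CPM (counts scaled to the same total in every sum, the level used throughout).

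Members made up 0.772% of the kept cells of lot 26 (75 of 9711, exact Clopper-Pearson 95% interval 0.608% to 0.967%), 0.433% of lot 29 (37 of 8553, 0.305% to 0.596%) and 0.271% of lot 30 (29 of 10707, 0.181% to 0.389%). The mean was 0.492% ± 0.256 (SD, n = 3 lots). The intervals cover counting error only, and that of lot 26 lay above those of the other lots. When the kept cells with at least 4000 UMIs were thinned to 4000, 63 of 28136 cells met the rule, a mean share of 0.230%. Kept cells with fewer UMIs were left out of both counts. Insl3-high cells were 28.0% of members in lot 26 (21 of 75, 18.2% to 39.6%), 16.2% in lot 29 (6 of 37, 6.19% to 32.0%) and 10.3% in lot 30 (3 of 29, 2.19% to 27.4%).

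The rule genes chose the members, so their levels are a description. Hsd3b1 was detected in 127 of the 141 members, Star in 124, Cyp11a1 in 110, Insl3 in 68, Cyp17a1 in 63 and Cyp21a1 in 28. Among the other kept cells 8.49% had a Star UMI, 5.16% an Hsd3b1 UMI and 2.47% a Cyp11a1 UMI, against 0.416% for Insl3 and 0.0659% for Cyp21a1. A group of 349 other cells in a cluster led by the endothelial genes Cldn5 and Cdh5, which should not make steroids, had these at 3.44%, 2.29%, 0.860%, 0.287% and 0%, with a median of 14701 UMIs. The whole cluster held 351 cells, and 2 of them (0.570%) met the rule and were left out of this group. Both were called doublets and had Cyp21a1 UMIs. Later values of the endothelial cluster are of the 349 cells alone. Cyp11a1 stood at 681, 727 and 160 CPM in the summed members of lots 26, 29 and 30, against 2.77, 2.88 and 2.68 CPM in all other kept cells. Hsd3b1 stood at 681, 553 and 232 CPM and Star at 336, 436 and 118 CPM. Members of lot 30 were thus lowest for all 3 genes. Cyp17a1 had 498, 396 and 155 CPM and Insl3 532, 150 and 86.9 CPM, while Cyp21a1 had 108, 98.0 and 0 CPM. No member of lot 30 had a Cyp21a1 UMI, and 0 of 29 cells allows a share of up to 10.3%. This bound is 3 over the number of cells, not an exact interval, and it counts cells as independent.

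**Figure D1:**
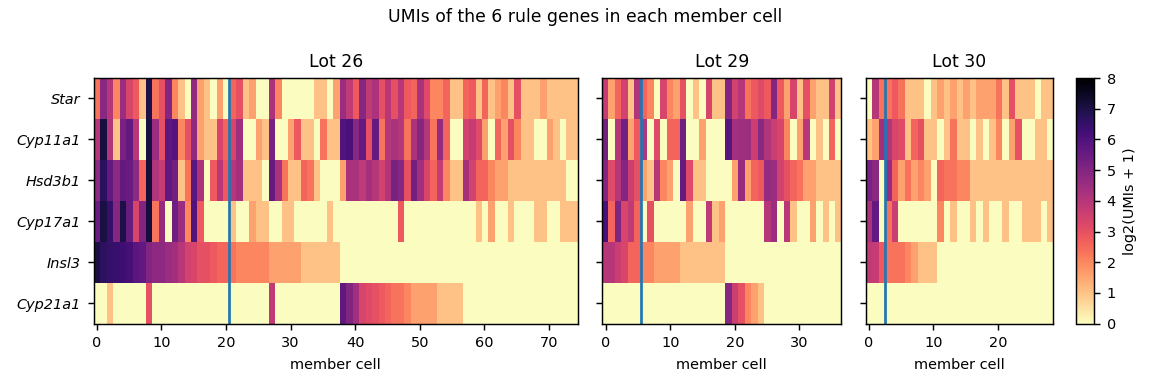
UMIs of the 6 rule genes (rows) in each of the 141 members (columns), on a log2(UMIs + 1) scale, by lot and ordered by Insl3 and then Cyp21a1 UMIs; cells left of the blue line are Insl3-high. Cyp17a1 is dark among the Insl3-high cells on the left of each panel, the 28 cells with Cyp21a1 UMIs are almost all without Insl3, and lot 30 has none of them.

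The total of rule gene UMIs per member ran from 3 to 571 with a median of 14. It was 10 or more in 85 members and 50 or more in 37. At the other end, 24 members had exactly 1 UMI of each of 3 genes. The 71 members with exactly 3 rule genes, just inside the rule, had a median of 5 rule gene UMIs, and the 458 cells just outside it with exactly 2 rule genes had a median of 2. The 45 members with 4, the 23 with 5 and the 2 with all 6 genes had medians of 30, 97 and 415.5. The most common combinations were Star, Cyp11a1 and Hsd3b1 alone (24 cells), all genes but Cyp21a1 (21 cells, 18 of them Insl3-high), and Star, Cyp11a1, Cyp21a1 and Hsd3b1 (21 cells, 0 Insl3-high).

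To find genes outside the rule that set members apart, counts were summed over members and over all other kept cells within each lot and tested with edgeR's quasi-likelihood test (Benjamini-Hochberg adjusted p under 0.05, the threshold and source of every adjusted p given here). Of 9960 genes tested, 342 were higher in members (3.43% of those tested) and 127 lower (1.28%), together 469 (4.71%). Both sums of a lot come from 1 library, and with the lot as a block 467 genes were higher (4.69%) and 276 lower (2.77%), together 743 (7.46%), with 442 genes called by both fits. The median log2 fold change of all genes tested was -0.00416. Among cells of 8000 to 20000 UMIs alone the test called 405 genes, 277 of them among the 469, and 457 of 459 refitted genes had the same direction. Without the doublets the count was 789, and without the Insl3-high members it was 170. The calls depended on lot 26, which holds most member UMIs. Without it edgeR called 0 genes, with 1058 at an unadjusted p under 0.05 and 322 calls by DESeq2, and without lot 29 edgeR called 66. All 464 genes refitted without lot 26 kept their direction. The genes were chosen in the same cells, so directions kept in these refits are no independent support.

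The 12 genes with the largest higher values among those seen in every lot were Adh1, Mal, Lrtm1, Grin2c, Mgarp, Hao2, Sftpc, Slc6a15, Klhl14, Mc2r, Fbp1 and Abcb1b. Adh1, an alcohol dehydrogenase that also oxidizes retinol (chromosome 3, 138260991 to 138290698 in GENCODE's annotation of GRCm38), stood at 355, 268 and 20.4 CPM in members against 2.33, 1.89 and 1.36 CPM in other cells. The groups did not overlap, members of lot 30 were far below those of the other lots, and the log2 fold change was 6.92 ± 0.72 (SE, adjusted p = 0.00133). Mgarp, a mitochondrial protein known from steroid-making tissues, had 165, 166 and 10.2 CPM against 2.17 to 2.48 CPM (5.69 ± 0.56, adjusted p = 0.00107). Mc2r encodes the receptor for adrenocorticotropic hormone (ACTH). It had 68.1, 57.3 and 6.81 CPM against 1.40 to 1.63 CPM (4.95 ± 0.48, adjusted p = 0.000984), with a UMI in 46 of the 141 members. Hao2, a peroxisomal hydroxyacid oxidase, differed less between lots, with 30.1, 57.3 and 17.0 CPM against 0.552 to 0.829 CPM (5.59 ± 0.45, adjusted p = 0.000476). The membrane lipid protein gene Mal had 93.9, 27.7 and 8.51 CPM against 0.391 to 0.598 CPM (6.66 ± 0.61), and Lrtm1 was highest in lot 30 at 32.4 CPM. For all 12 genes every lot of members lay above every lot of other cells. They were chosen for large fold changes and a higher value in each lot, so this is a description. The share of all tested genes without overlap was not counted. Adh1, Mgarp, Mc2r, Hao2 and Mal were under 5 CPM in other cells. They thus passed the filter of a mean of 5 CPM only through the members' sums. The same held for Cyp11b1, Lhcgr, Mrap, Akr1b7, Shh and Hhip, whose values are given below.

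**Figure D2:**
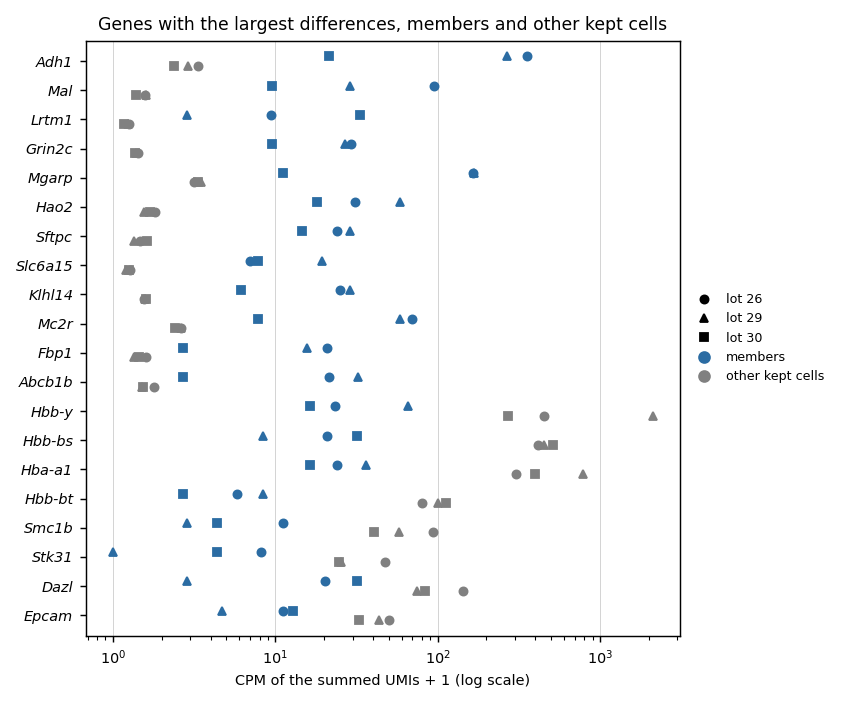
CPM + 1 (log axis) of the 12 genes with the largest higher and the 8 with the largest lower values in members, with 1 point per lot for the summed members (blue) and for the summed other kept cells (grey). The members' points lie right of all grey points for the 12 genes from Adh1 to Abcb1b and left of them for the 8 from Hbb-y to Epcam. All were chosen for a difference in that direction in each lot, and the share of all tested genes without overlap was not counted.

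Outside the rule, 5 of the 13 tested genes of steroid synthesis and its control were higher in members (6 with the lot as a block) and 0 were lower, with a list median log2 fold change of 0.72. Fdx1, the electron donor for CYP11A1 and CYP11B1, was at 954, 1224 and 226 CPM in members against 91.9, 102 and 101 CPM in other cells (3.03 ± 0.49, adjusted p = 0.00979). Its reductase Fdxr was at 560, 681 and 204 CPM against 80.5 to 84.7 CPM (2.54 ± 0.36, adjusted p = 0.00558). The groups did not overlap for either gene. Fdx1 and Fdxr had a UMI in 135 and 131 of the 141 members, in 62.0% and 51.1% of the shallower other kept cells and in 55.9% and 36.7% of the endothelial cluster. Nr5a1, the master regulator of steroidogenic cells, was already present at 56.6, 46.1 and 57.9 CPM in other cells and reached 148, 150 and 98.8 CPM in members (1.32 ± 0.17, adjusted p = 0.00358). Por, the reductase that serves CYP17A1 and CYP21A1, was higher by 1.03 ± 0.15. Cyp11b1, the last enzyme of glucocorticoid synthesis, had the largest fold change of the list. It was at 114, 120 and 0 CPM in members against 0.0805, 0.0230 and 0.0142 CPM (10.95 ± 0.99, adjusted p = 0.000743), and its 23 member cells all came from lots 26 and 29. Its groups overlapped only through lot 30, where members were at 0. With under 5 CPM in other cells, Cyp11b1 passed the filter only through the members' sums. Of its 3165 exon bases, 285 overlap Gml2 on the other strand. Cyb5a, at 296, 387 and 308 CPM against 243 to 287 CPM, and the mitochondrial translocator Tspo, at 127, 120 and 198 CPM against 128 to 131 CPM, did not pass.

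Of the 26 genes of cholesterol synthesis and supply, 5 were higher in members (6 with the block) and 0 lower. The list median was 0.43, and 24 genes had a positive fold change, against 49.4% of all genes tested. The HDL receptor Scarb1, which brings cholesteryl esters into steroidogenic cells, was at 210, 166 and 56.2 CPM against 18.1 to 22.3 CPM (2.95 ± 0.34, adjusted p = 0.00247). The cholesterol exporter Abca1 (1.56 ± 0.29), the ester hydrolase Lipe (1.41 ± 0.32) and the synthesis enzymes Msmo1 (1.18 ± 0.21) and Pmvk (0.57 ± 0.12) were also higher. Lipe shares 918 of 5886 exon bases with a gene on the other strand that the tables also list. The esterifying enzyme Soat1 (352, 440 and 596 CPM against 330 to 378 CPM) and the lysosomal carrier Npc2 (287, 283 and 342 CPM against 301 to 323 CPM) did not pass.

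Marker lists of fetal Leydig cells and of the adrenal cortex, which share Mc2r, Scarb1 and Nr5a1, both held many higher genes. They were written with earlier results of these data known, so their direction is no independent evidence. Some of their genes, Mc2r, Lhcgr, Mrap, Akr1b7, Cyp11b1 and Shh among them, passed the filter only through the members' sums. Such genes could only come out higher, which limits the counts of higher and lower genes below. Of 11 tested Leydig markers 9 were higher and 0 lower (median 2.95), and of 10 tested adrenal markers 8 were higher and 0 lower (median 3.73). On the Leydig list Lhcgr, the receptor for luteinizing hormone, was at 25.9, 25.9 and 25.5 CPM in members against 4.02, 2.69 and 3.16 CPM in other cells (2.97 ± 0.25, adjusted p = 0.000603). Its level in members was nearly the same in every lot. The renin gene Ren1, with no drop in lot 30, had 47.6, 92.5 and 106 CPM against 1.48 to 5.76 CPM (4.68 ± 0.61). Inhibin alpha (Inha) was at 377, 396 and 194 CPM against 44.1 to 48.1 CPM (2.80 ± 0.25), and the prolactin receptor Prlr (3.88 ± 0.55) and the cholesterol transporter Gramd1b (3.60 ± 0.29) were also higher. Thbs2 did not pass, and no member had a UMI of Sult1e1.

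On the adrenal list Mrap, the accessory protein that MC2R needs to reach the cell surface, was at 93.3, 117 and 5.11 CPM in members against 1.98 to 3.81 CPM in other cells (4.73 ± 0.60, adjusted p = 0.00353). Akr1b7, an aldose reductase family enzyme induced by ACTH, was at 39.7, 38.8 and 1.70 CPM against 1.09 to 1.46 CPM (4.51 ± 0.56). Shh, which the fetal adrenal cortex secretes, was at 18.1, 20.3 and 0 CPM against 0.0710 to 0.105 CPM (7.26 ± 1.22, adjusted p = 0.0122). These 3 genes and Cyp11b1 were low or at 0 in the members of lot 30, the lot with no Cyp21a1 UMI in a member. Hoxb9 was higher by 2.49 ± 0.46. Dlk1, at 414, 379 and 97.1 CPM against 158 to 178 CPM, did not pass. The chromaffin cells of the adrenal medulla express Th, Dbh and Chga, and none of these had a UMI in any member. Chgb, the only tested gene of that list, had 1 UMI in 1 member and passed as lower only with the block (adjusted p = 0.00111). The summed 10 chromaffin markers were at 3.70 to 10.2 CPM in members and 18.9 to 68.6 CPM in other cells.

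Of 7 tested hedgehog genes, Shh and Hhip were higher (3 genes with the lot as a block) and 0 lower. Both were under 5 CPM in other cells and passed the filter only through the members' sums. HHIP binds hedgehog ligands and is a target of their signal. Hhip was at 74.1, 74.0 and 23.8 CPM in members against 1.45 to 3.59 CPM in other cells (4.51 ± 0.45, adjusted p = 0.00122). The receptor gene Ptch1, another target, was at 44.6, 35.1 and 39.2 CPM against 23.7 to 29.2 CPM and missed the threshold (0.65 ± 0.16, adjusted p = 0.0599), which it passed with the lot as a block (adjusted p = 0.0484). The transducer Smo did not pass. Cyp26b1, which breaks down retinoic acid and is a marker of Sertoli cells on the list used here, was at 71.1, 117 and 46.0 CPM against 1.62 to 7.03 CPM (4.18 ± 0.56, adjusted p = 0.00456). It was the only one of 7 tested Sertoli markers called higher, and 0 were lower (1 with the block). Sox9 stood at 27.1 to 40.9 CPM in members and 22.4 to 49.5 CPM in other cells. Summed over the 10 Sertoli markers, members of lot 29 were at 701 CPM and those of the other lots at 124 and 153 CPM, and other cells of lot 29 were also highest, at 407 CPM. A few cells carried the value of lot 29. Both members in the cluster of 392 cells led by Amh and Cst9 (Sertoli cell genes) were of that lot, and 1 member held 49.1% of all members' UMIs of Ptgds, a Sertoli marker that did not pass.

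Genes lower in members were led by those of blood and germ cells. Embryonic and adult globins were at 22.3, 64.7 and 15.3 CPM (Hbb-y) and 19.9, 7.40 and 30.7 CPM (Hbb-bs) in members, against 453, 2109 and 269 CPM and 417, 453 and 511 CPM in other cells. All 5 tested red cell genes had negative values and 4 passed (5 with the block), with Hbb-y at -4.94 ± 0.90 and Hbb-bs at -4.56 ± 0.29; the globin genes have near-identical copies between which reads can be split. The germ cell genes Smc1b (-3.17 ± 0.55), Stk31 (-2.68 ± 0.57) and Dazl (-2.45 ± 0.45, adjusted p = 0.0176) were also lower. Of 6 tested genes on the germ cell list, Dazl alone passed, and all 6 did with the block. The other kept cells include a cluster of 80 cells led by globins and one of 1466 led by Dppa5a and Dazl. Dazl was at 19.3, 1.85 and 30.7 CPM in members and 141, 73.1 and 82.1 CPM in other cells.

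Markers of the ovary's own somatic cells were not absent from members. Of 8 tested surface epithelium markers 3 were lower (Lrrn4, Krt7 and Krt8; 5 with the block) and 0 higher, and of 12 stromal markers 4 were lower (5 with the block) and 0 higher. Dcn, a matrix proteoglycan gene, was at 52.4, 18.5 and 37.5 CPM in members against 119 to 128 CPM in other cells (-1.64 ± 0.23, adjusted p = 0.00581). Mgp (-1.59 ± 0.35), Col1a1 (-1.51 ± 0.19) and the stromal factor Tcf21 (-1.50 ± 0.24) were the others. Col3a1, at 181 to 222 CPM in members and 211 to 272 CPM in other cells, did not pass. Of 10 tested pre-granulosa markers, genes of the cells that will surround the oocyte, 1 was higher and 0 lower (2 lower with the block). The higher gene was Wnt4, at 543, 547 and 644 CPM against 316 to 384 CPM (0.75 ± 0.13, adjusted p = 0.0149), and it is a signal of ovary and adrenal development. Fst, at 270, 159 and 664 CPM in members, and Wnt6 did not pass. The summed epithelial markers of members were at 199.7 to 679 CPM and those of other cells at 764 to 915 CPM; for the stroma these were 721 to 812 and 1127 to 1286 CPM, and for pre-granulosa cells 1609 to 3307 and 2330 to 2750 CPM. None of the 5 tested endothelial, 3 myeloid and 2 mesonephric tubule markers passed, and with the block 2 myeloid and 1 mesonephric marker were lower. Summed endothelial markers were at 18.5 to 101 CPM in members and 91.2 to 150.1 CPM in other cells.

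**Figure D3:**
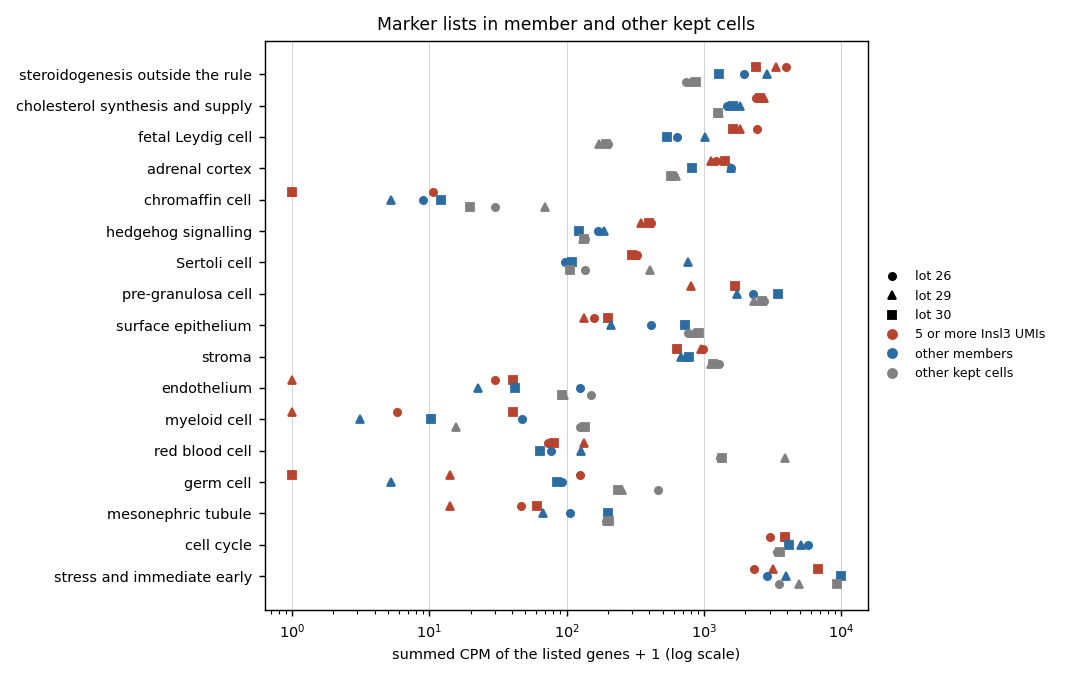
Summed CPM + 1 (log axis) of the genes of 17 marker lists in the Insl3-high members (red), the other members (blue) and all other kept cells (grey), 1 point per lot. Members lie right of the grey points for steroidogenesis, cholesterol, Leydig and adrenal lists. They lie left of them for the red blood cell, germ cell, chromaffin cell, surface epithelium and stroma lists.

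The cell cycle inhibitor Cdkn1c, a marker of cells leaving the cycle that is also strongly expressed in the fetal adrenal, was the only one of 15 tested cell cycle genes that passed. It was at 3239, 3307 and 2890 CPM in members against 1825, 1913 and 2090 CPM in other cells (0.69 ± 0.10, adjusted p = 0.00708). A gene on the other strand overlaps 625 of its 2039 exon bases. The proliferation genes Top2a and Mki67 stood at 140 to 303 and 57.9 to 163 CPM in members, and at 233 to 266 and 93.3 to 120 CPM in other cells. None of 9 stress and immediate early genes passed (1 higher and 2 lower with the block). Their summed level differed mainly between lots, with 2750, 3815 and 9622 CPM in members of lots 26, 29 and 30 and 3507, 4921 and 9351 CPM in other cells.

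The split by Insl3 separated members that differed in the other rule genes, which is a description since these genes chose the members. Cyp17a1 was at 1942, 1760 and 1292 CPM in the Insl3-high members of lots 26, 29 and 30 and at 18.5, 174 and 48.4 CPM in the other members. Hsd3b1 was at 1657, 1337 and 1252 CPM against 356, 426 and 136 CPM. For both genes the groups did not overlap. Cyp11a1 (1408, 1323 and 457 CPM against 439, 630 and 132 CPM) and Star (691, 609 and 378 CPM against 218, 408 and 93.1 CPM) were higher in each lot but overlapped between lots. Cyp21a1 went the other way, at 19.3, 0 and 0 CPM against 138, 114 and 0 CPM. Just inside the minimum, the 10 members with 5 to 9 Insl3 UMIs had 573 CPM of Cyp17a1, and just outside it, the 12 with 3 to 4 had 128 CPM. All 13 cells with 20 or more Insl3 UMIs came from lot 26. Insl3 shares 404 of its 623 exon bases with Jak3 on the same strand, so that reads there can belong to either.

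Of 6115 genes tested between the Insl3-high and the other members, 20 were higher (0.327%) and 3 lower (0.0491%), together 23 (0.376%), with 616 at an unadjusted p under 0.05. With the lot as a block 101 were higher (1.65%) and 32 lower (0.523%), together 133 (2.17%), with the 23 genes among them. The Insl3-high sums of lots 29 and 30 hold 6 and 3 cells and 75566 and 50313 UMIs, so that 1 UMI was worth 13.2 and 19.9 CPM there. Without lot 26 edgeR called 0 genes, with 414 at an unadjusted p under 0.05 and 2 by DESeq2. With a minimum of 3 Insl3 UMIs it called 0, with 496 at an unadjusted p under 0.05 and 23 by DESeq2, and with a minimum of 10 it called 60. Among cells of 8000 to 20000 UMIs it called 6 genes, 2 of them among the 23. In each of these refits all 23 genes kept their direction, which is no independent support since the genes were chosen in the same lots. Median UMIs per cell were 18618, 12794 and 14337 in Insl3-high and 17756.5, 15024 and 16050.5 in other members, so the Insl3-high members were deeper in lot 26 and shallower in lots 29 and 30.

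The genes higher in Insl3-high members included hormone, receptor and transcription factor genes. Of those named, Sct, Hhip, Prokr2 and Hsd11b2 were also among the 10 leading genes of a cluster of 377 cells described below. Of these cells 24 were members, so the genes were not shown to be particular to members. Sct, the hormone secretin, was at 1384, 1297 and 1034 CPM against 69.8, 325 and 102 CPM in other members (2.90 ± 0.45, adjusted p = 0.0298), with a UMI in 27 of 30 and 51 of 111 cells. Lhcgr was at 82.1, 66.2 and 99.4 CPM against 7.22, 19.3 and 18.6 CPM (2.52 ± 0.45, adjusted p = 0.0338). Hhip was at 237, 225 and 119 CPM against 20.1, 49.4 and 14.9 CPM (2.91 ± 0.42, adjusted p = 0.0295). The groups of all 3 genes were apart in every lot, but the Insl3-high value of Hhip in lot 30 was 6 UMIs of 1 cell. The prokineticin receptor gene Prokr2 was at 111, 79.4 and 99.4 CPM against 4.81, 30.1 and 9.31 CPM (2.99 ± 0.54). Its Insl3-high value in lot 30 was 5 UMIs of 1 cell. The chemokine gene Cxcl12 was at 164, 212 and 59.6 CPM against 13.6, 27.9 and 26.1 CPM (2.82 ± 0.41), and 1 cell held 27.6% of its Insl3-high UMIs. Cells that are no members had 32.7, 50.8 and 32.6 CPM of Cxcl12, above the other members in each lot. It was also a leading gene of a cluster of 1702 cells led by Dkk2 and Lum and of one of 472 led by Lum and Ecm1, with 1 member in each. Foxs1, a forkhead transcription factor gene, was at 126, 357 and 338 CPM against 8.82, 47.3 and 29.8 CPM (3.15 ± 0.56).

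Others encode enzymes. Aldh1a1, which makes retinoic acid, was at 1237, 1098 and 1570 CPM in Insl3-high members against 89.9, 359 and 201 CPM in other members (2.53 ± 0.38, adjusted p = 0.0298). Hsd11b2, which inactivates glucocorticoids, was the only one of 10 tested steroid genes to pass (2 higher, with Fdx1, and 1 lower, Cyp11b1, with the block), at 203, 132 and 79.5 CPM against 28.1, 51.6 and 20.5 CPM (2.24 ± 0.40, adjusted p = 0.0338). The epoxide hydrolase Ephx1 had the largest fold change (3.48 ± 0.51), followed by the folate enzyme Aldh1l1 (3.18 ± 0.60), and the aminoacylase Acy3 was higher by 3.02 ± 0.54. The phospholipid transfer protein Pltp (2.72 ± 0.44), which shares 495 of 2562 exon bases with Ctsa on the other strand, and the protease Htra3 (2.27 ± 0.40) were also higher. In other members Ephx1, Aldh1l1, Acy3, Prokr2 and Lhcgr had means of 5.26, 8.31, 9.10, 14.7 and 15.1 CPM. They thus passed the filter of a mean of 20 CPM only through the Insl3-high sums. The lot 30 values of Aldh1l1 and Htra3 in Insl3-high members were 2 and 7 UMIs of 1 cell each. That of Acy3 in lot 29 was 5 UMIs of 1 cell. The 3 lower genes were Phlda1 (-2.57 ± 0.42), Rgs2, a brake on G protein signals (-2.12 ± 0.41), and Cdkn1c. Phlda1, with a mean of 15.9 CPM in Insl3-high members, passed the filter only through the other members. Cdkn1c was at 1369, 2051 and 1988 CPM in Insl3-high members against 3860, 3511 and 2974 CPM in other members (-1.04 ± 0.17, adjusted p = 0.0321). The Insl3-high values overlapped those of the cells that are no members, 1825 to 2090 CPM, and those of the other members lay above both.

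**Figure D4:**
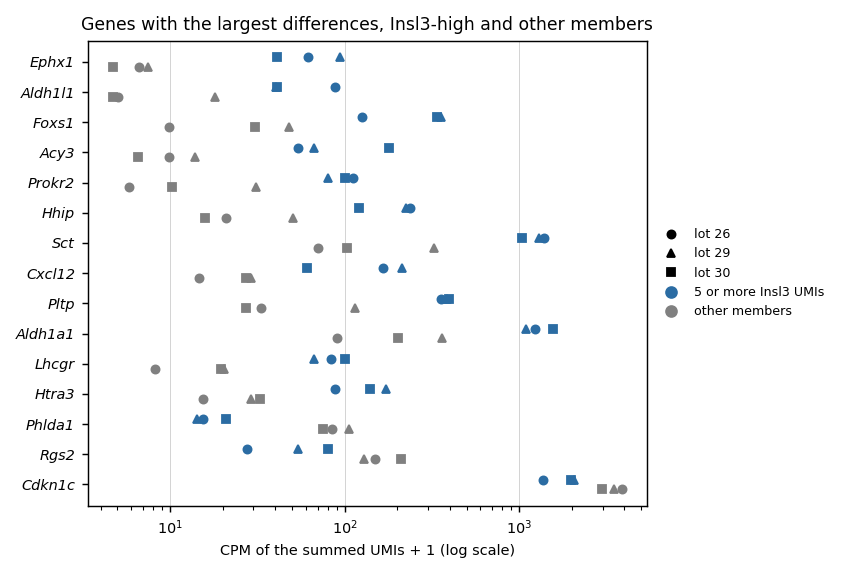
CPM + 1 (log axis) of the 12 genes with the largest higher values in Insl3-high members and of the 3 lower genes, with 1 point per lot for the summed Insl3-high (blue) and other members (grey). For all 15 genes, which were chosen for a difference in the same direction in each lot, the blue and grey points do not overlap. The share of all tested genes without overlap was not counted, so this is a description.

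Genes that set all members apart did not all pass in the Insl3 split, and a missed threshold does not show equal levels. Fdx1 was at 1939, 1509 and 616 CPM in Insl3-high and 627, 1178 and 190.0 CPM in other members (1.03 ± 0.51, adjusted p = 0.531, 0.0184 with the lot as a block). Fdxr was at 675 to 754 CPM against 155 to 682 CPM and did not pass. Scarb1, at 505, 423 and 119 CPM against 112, 125 and 50.3 CPM, missed the threshold (1.94 ± 0.41, adjusted p = 0.0703) and passed with the block (0.00219). The same held for Cyp26b1, at 266, 304 and 258 CPM against 6.42, 86.0 and 26.1 CPM (2.94 ± 0.61, adjusted p = 0.0601, 0.00326 with the block). Of 11 tested Leydig markers, Lhcgr alone was higher and none lower (6 higher with the block), with a list median of 1.87. None of 7 adrenal markers passed (median -0.48), and with the block 1 was higher and 2 lower. Dlk1 was at 62.8, 146 and 0 CPM against 530, 417 and 106 CPM (-2.35 ± 0.64, adjusted p = 0.173, 0.00194 with the block). All 20 tested cholesterol genes had positive values, against 46.0% of all genes tested, with a list median of 0.60, and 0 passed (2 with the block). None of the tested pre-granulosa, epithelial, stromal, Sertoli or mesonephric markers passed. With the block 1 Sertoli marker was higher, and 1 Sertoli, 2 pre-granulosa, 1 epithelial and 1 mesonephric marker were lower. None of 9 stress genes passed (2 lower with the block).

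A division by Cyp21a1, made after the values were seen, showed members with different gene sets. It is a description with no test. Of the 28 members with a Cyp21a1 UMI, 2 were Insl3-high, and the 26 others came from lots 26 (20 cells) and 29 (6 cells). Among these 26, Cyp17a1 was seen in 1 cell and Insl3 in 1 cell, while Star was seen in all 26, Hsd3b1 in 25 and Cyp11a1 in 24. Genes outside the rule also differed in their shares of cells. Cyp11b1 had a UMI in 18 of the 26 (69.2%), in 2 of 30 Insl3-high members (6.67%) and in 3 of the 85 remaining members. Mc2r was seen in 23 of the 26 (88.5%) against 11 of 30 (36.7%), Mrap in 22 against 8, Akr1b7 in 20 against 3 and Shh in 10 against 3. Among all other kept cells 0.0486% had a Cyp11b1 UMI, 1.69% an Mc2r UMI, 3.24% an Mrap UMI and 1.26% an Akr1b7 UMI. In the endothelial cluster these were 0%, 0.860%, 1.15% and 0.860%. Adh1 stood at 684 CPM over the 26 cells, with 687 CPM in lot 26 and 671 CPM in lot 29, against 270 CPM in the Insl3-high members. Dlk1, a marker of adrenal and other progenitors, was seen in all 26 cells at 726 CPM, against 68.5 CPM in the Insl3-high members.

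The Insl3-high members had the reverse pattern for other genes. Hhip was seen in 24 of 30 (80.0%) and in 0 of the 26 Cyp21a1 members. The latter allows a share of up to 11.5% (3 over the number of cells, lots pooled). Cyp26b1 was seen in 24 against 2, Foxs1 in 23 against 1, Lhcgr in 16 against 2 and Crhr1, a receptor for corticotropin-releasing hormone, in 10 against 0. In all other kept cells these genes had a UMI in 2.07%, 2.83%, 4.10%, 3.45% and 0.0520%, and in the endothelial cluster in 1.15%, 13.5%, 4.58%, 0.860% and 0%. The median depth was 17388.5 UMIs in Insl3-high members, 23798.5 in the 26 cells and 10573 in other kept cells, and the part of depth in the shares above and in these was not tested. Scrublet called 10.0% and 19.2% of these members doublets. Endothelial markers summed to 166 CPM in the 26 cells and 25.9 CPM in the Insl3-high members. Of the 26 cells, 2 were in the endothelial cluster and were called doublets. The part of that in the pattern was not tested.

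The remaining 85 members had neither mark. In 32 of them the rule genes summed to 10 or more UMIs. These cells had 159 CPM of Cyp17a1, 623 CPM of Fdx1 and 408 CPM of Fdxr, with Hhip in 9 and Mc2r in 9 of 32. In the other 53, with under 10 rule gene UMIs, Fdx1 was at 169 CPM and Fdxr at 189 CPM. Cyp11b1 was seen in 0 of 53, which allows a share of up to 5.66% (3 over the number of cells, lots pooled). The summed pre-granulosa markers were at 3805 CPM in these 53 cells, at 1890 CPM in the 32, at 1569 CPM in the Insl3-high members and at 1343 CPM in the 26 with Cyp21a1. All other kept cells together were at 2605 CPM, between the 53 cells and the rest. Of the 29 members of lot 30, 18 were of this kind, against 25 of 75 in lot 26 and 10 of 37 in lot 29.

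**Figure D5:**
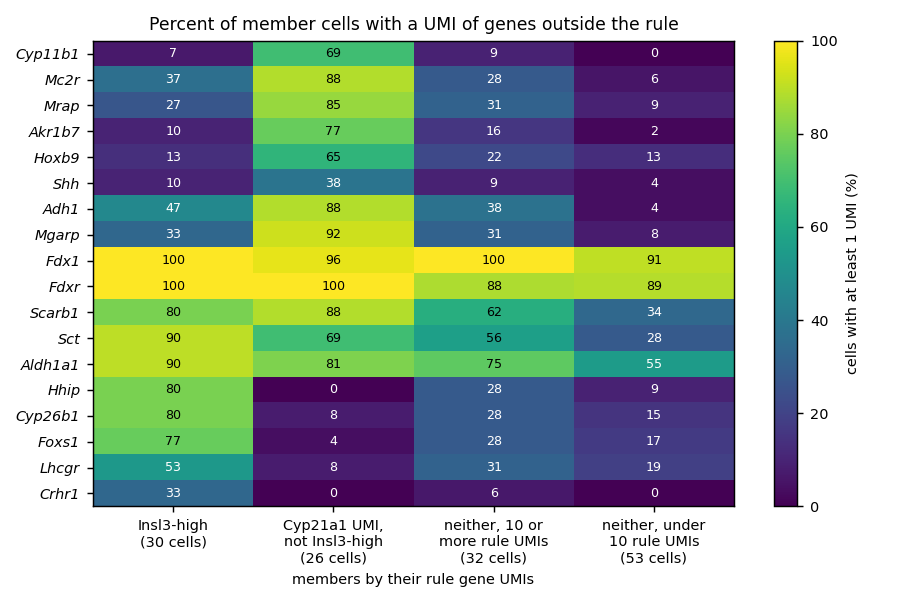
Percent of cells with at least 1 UMI of 18 genes outside the rule (rows) in 4 sets of members divided by their Insl3, Cyp21a1 and total rule gene UMIs (columns, 30, 26, 32 and 53 cells). Genes from Cyp11b1 to Mgarp have their highest share among the Cyp21a1 members and genes from Sct to Crhr1 among the Insl3-high members, while Fdx1 and Fdxr are at 87.5% or more in all sets.

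When all kept cells were clustered without the rule genes, members fell into 16 of 20 clusters. The most, 30, were in a cluster of 1619 cells led by histone genes such as Hist1h2af, a sign of cells in S phase, and 20 of the 26 Cyp21a1 members without high Insl3 were there and 0 Insl3-high members. The densest cluster was one of 377 cells led by Cbln1, Sostdc1, Prokr2 and Hhip, of which 24 were members (6.37%) and 15 Insl3-high. Hsd11b2, Ren1 and Sct were also among its 10 leading genes, which were taken over members and other cells together. Another 11 Insl3-high members were in a cluster of 1875 cells led by Itga8, Mxd3 and Ngfr, and 3 in one of 911 cells led by Lypd1 and Pax8. Of the 53 members with few rule gene UMIs, 20 were in the largest cluster, of 4562 cells, which was led by Fam129a, Ryr2 and Ly6d. No member was in the clusters led by Tm4sf5 and Krt19, by Lars2, by Hba-x and Hbb-y or by Chgb and Phox2a. The clustering used all genes but the rule genes and those on X and Y, so the leading genes are a description of where the members lay.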

How the data were processed

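Barcodes were called by the authors in UMI-tools, reads were mapped to GRCm38 with STAR 2.7, and UMIs were counted per gene with featureCounts 2.0.1. They deposited these counts for each lot without normalization. The annotation release and the strand setting are not given in the sources used here, and overlapping genes may share reads. The tables list 18738 genes, and 18672 symbols were placed on a chromosome through GENCODE M21 or, failing that, RefSeq symbols and synonyms. The members, the gene lists and the division by Cyp21a1 were chosen with earlier results of these data known.

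Cells were filtered by the study's limits on detected genes and mitochondrial share. A cluster of 392 cells led by Amh and Cst9, with 2 members, was kept, while the study set Sertoli cells aside. UMI counts were summed over cells of a group within each lot. Sums were tested with edgeR 4.0.16 in R 4.3.3 (TMM, quasi-likelihood test) on genes with a mean of at least 5 CPM (members) or 20 CPM (Insl3 split), with adjustment over all genes tested. The 6 rule genes and genes on X and Y stayed in the library sizes and were not tested. SE is the absolute fold change over the root of the F statistic. Named genes are, per test, the 12 highest and 8 lowest by fold change past the threshold with the same direction and, on the higher side, a UMI in every lot and at least 20 UMIs in all (for lower genes, a mean of 20 CPM), up to 4 called and 2 uncalled genes of each list, and the rule genes. Por, Pmvk, Lhcgr and Inha among all members, Akr1b7, Hoxb9, Sox9, Mki67 and the genes of the division by Cyp21a1 were named after their values were seen. The test was tried on simulated data first.

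The sums of 1 lot share a library, which pairs them. Correlations of their deviations about each group's mean were 0.352, 0.294 and 0.301 (r) for members and others, and 0.0861, 0.133 and 0.116 for the Insl3 split. Scrublet (scanpy 1.11.5, expected rate 8%) marked doublets within lots, which were kept except in an alternative. Clustering used log-normalized counts (to 10000), 2000 variable genes, 50 principal components and Leiden at resolution 0.8. Alternatives were other cell filters, normalizations, count filters and membership rules, DESeq2 1.42.0, the lot as a block and each lot left out. A gene of the lists is not reported here.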

Additional observations from a re-analysis of the deposited data

How the results depend on the processing

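The count of 469 genes between members and other kept cells was 405 to 596 with other cell filters, normalizations, low-count filters, cells of 8000 to 20000 UMIs and without the cells that had exactly 2 rule genes. It was 789 without doublets, 934 with at least 4 rule genes, 170 without the Insl3-high members, 907 by DESeq2 and 743 with the lot as a replicate block, or 991 with the block and no doublets, a setting added after the data were seen. Leaving out 1 lot gave 0 (without lot 26) to 693 genes, and DESeq2 without lot 26 gave 322. For the Insl3 split the count of 23 moved to 6 in cells of 8000 to 20000 UMIs, 0 with 3 or more and 60 with 10 or more Insl3 UMIs, 236 with no low-count filter, 41 with filterByExpr, 52 by DESeq2 and 133 with the replicate block, and other settings gave 19 to 29. Leaving out 1 lot gave 0 (without lot 26) to 43 genes. DESeq2 with settings added after the data were seen gave 2 without lot 26 and 23 with 3 or more Insl3 UMIs. The cause of these moves was not tested. The mean share of members, 0.492%, was 0.230% in cells thinned to 4000 UMIs and 0.352% to 0.602% with 1 lot left out. The Insl3-high members of lot 30 are 3 cells with 50313 UMIs, which limits the precision of the split.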

Other observations

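Over cells with 0, 1, 2, 3, 4 and 5 rule genes, the summed CPM of the 17 steroidogenesis genes outside the rule averaged 785, 887, 974, 1613, 2279 and 3443 over 3 lots, and that of the Leydig markers 176, 227, 312, 630, 887 and 2058. The adrenal list stood at 592, 632, 691, 1128, 1367 and 1324 CPM and did not go up from 4 to 5 genes. The pre-granulosa list stood at 2423, 3095, 3781, 3120, 1888 and 1016 CPM, with its highest mean in the cells just outside the rule. The median depth was 10264, 12003, 13115.5, 14992, 19537 and 17422 UMIs, and its part in these values was not tested.

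Outside the members, 3 kept cells had 5 or more Insl3 UMIs with fewer than 3 rule genes.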
